A study of Homo sapiens with 6 samples.

Results

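A set of 32 protein-coding genes was close to silent in vehicle-treated HPNE-hTERT cells and was read in every library after the chemotherapy mixture FOLFIRINOX. HPNE-hTERT is a human line of the pancreas, labelled as non-malignant duct epithelium and immortalized with the telomerase gene hTERT, which both groups carry. The 3 FOLFIRINOX libraries came from cells given SN-38 at 25 nM, oxaliplatin at 5 µM and 5-fluorouracil at 10 µM over 4 days, a treatment used in the study to make cells senescent. The 3 vehicle libraries came from cells of the same line given DMSO and labelled with the same day. All libraries are of 1 cell line, and whether each library is a culture of its own is not in the labels. The p-values below therefore refer to the spread among the libraries and to nothing wider.

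The genes were selected on their own values: a FOLFIRINOX mean of 30 or more normalized reads and a vehicle mean under 5. A normalized read is a read divided by the authors' size factor for its library, and 1 read was worth 0.934 to 1.06 of them. Of 20075 coding genes, 6770 had a vehicle mean under 5, and 44 of these (0.650%) reached 30 in FOLFIRINOX. Of the 44, 12 were left out by name, through 5 symbols and 26 symbol beginnings, which leaves the 32. The beginnings included KRT, DSG, PPL, CDH, PCDH, COL, ITG, IL, CCL, CXCL, SERPIN, MMP, CYP and ABC. The roles named below therefore describe the 32 and not the make-up of the 44. Another 6220 of the 6770 (91.9%) stayed under 5 in FOLFIRINOX too. In the opposite direction, 15 coding genes had a FOLFIRINOX mean under 5 and a vehicle mean of 30 or more. Because the contrast chose the genes, their differences between groups are described and not tested.

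Many genes of a differentiated cell stay off, and which ones do depends on the cell type. Genes reserved for blood cells, neurons or muscle often have promoters poor in CpG dinucleotides, while broadly used genes tend to start in CpG islands. The drugs of FOLFIRINOX act on DNA: fluorouracil disturbs thymidylate supply, SN-38 traps topoisomerase I and oxaliplatin forms platinum adducts. Such damage activates the transcription factor p53, and cells that survive it can enter senescence, a lasting arrest with a changed set of expressed genes.

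The libraries held 83981154 to 97762802 reads assigned to genes. Their columns carry the numbers P14, P15 and P19, once in each group. Of 10 duct markers, KRT8, KRT18 and SOX9 were well read, while KRT19, CFTR and EPCAM had means under 10 in both groups. The 8 mesenchymal markers summed to 2521962 to 3069767 in FOLFIRINOX and 3484519.8 to 5220254 in vehicle, so the labelled duct identity is only partly seen in these RNAs. All 8 acinar and all 7 islet markers were under 10 in both group means. In bulk RNA, fewer cells that express a gene and less RNA in each cell cannot be told apart. Over 17951 genes tested with limma, noncoding ones included, 2047 were called higher in FOLFIRINOX (11.4%) and 2191 lower (12.2%). With the libraries blocked by P number, 3995 were higher (22.3%) and 3918 lower (21.8%). Without FOLFIRINOX P19 1318 were called higher, and scaling every library to 1 common total gave 2684 higher and 1699 lower and moved the median log2 difference by 0.11.

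Promoter sequences from RefSeq (GRCh38.p14), running from 250 bases before the start in its table to 50 after it, were at hand for 22 of the 32 genes. For 16 of them that start lay within 1000 bases of the 5′ end of the gene in the GENCODE annotation. For CEACAM1, CLIC5, PDE4C, PLEKHG1, SCN4B and THEMIS it was another start, 7162 to 63443 bases away. Sequences are shown for 4 of the 16 that span their range of CpG content, with every CpG in capitals. APOBEC3H (chr22:39096994-39097293, plus strand) had 1 CpG, TREM2 (chr6:41163067-41163366, minus strand) 5, INPP5D (chr2:233060092-233060391, plus strand) 12 and MYRIP (chr3:39809359-39809658, plus strand) 46.
APOBEC3H: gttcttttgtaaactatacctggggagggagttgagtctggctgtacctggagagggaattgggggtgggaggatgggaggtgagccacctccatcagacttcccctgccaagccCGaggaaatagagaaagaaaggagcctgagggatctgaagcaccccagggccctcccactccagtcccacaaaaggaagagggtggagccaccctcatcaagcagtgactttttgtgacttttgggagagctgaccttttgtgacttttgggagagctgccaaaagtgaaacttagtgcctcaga
TREM2: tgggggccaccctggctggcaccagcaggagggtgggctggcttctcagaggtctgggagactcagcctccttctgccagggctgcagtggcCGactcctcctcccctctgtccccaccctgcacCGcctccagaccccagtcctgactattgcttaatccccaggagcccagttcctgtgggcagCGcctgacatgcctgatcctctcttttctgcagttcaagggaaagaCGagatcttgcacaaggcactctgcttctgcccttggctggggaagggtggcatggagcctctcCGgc
INPP5D: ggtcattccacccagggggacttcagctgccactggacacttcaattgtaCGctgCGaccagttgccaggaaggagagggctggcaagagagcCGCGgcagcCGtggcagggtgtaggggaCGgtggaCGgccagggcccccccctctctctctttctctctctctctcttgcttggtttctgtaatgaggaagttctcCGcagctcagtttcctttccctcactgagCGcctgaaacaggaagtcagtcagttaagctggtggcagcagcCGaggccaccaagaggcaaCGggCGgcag
MYRIP: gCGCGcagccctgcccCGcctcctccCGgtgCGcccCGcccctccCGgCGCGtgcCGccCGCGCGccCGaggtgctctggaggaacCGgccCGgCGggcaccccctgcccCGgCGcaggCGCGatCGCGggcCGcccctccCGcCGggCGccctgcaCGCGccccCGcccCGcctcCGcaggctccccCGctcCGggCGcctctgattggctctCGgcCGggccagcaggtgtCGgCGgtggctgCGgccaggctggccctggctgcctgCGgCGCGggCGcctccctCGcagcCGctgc
The median of the 22 promoters was 12.5 CpG. It was 6 for 4190 promoters of coding genes under 5 in both groups, 26 for 10829 promoters of genes with a vehicle mean of 5 or more, and 22 for all 15409. The median of the set lay between those of the genes that stayed off and those in use. Over the starts within 1000 bases of the annotated 5′ end it was 12.5 in the 16 genes, 7 in 3584 genes under 5 in both groups and 26 in 9106 with a vehicle mean of 5 or more. DCLK1 and NEB had 2 CpG, PLEKHG7 3, and WHRN and DRAXIN 32 and 33.

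Short motifs were looked up on both strands of the same windows. The p53 half-site, the decamer that p53 dimers bind, was in 0 of 22 promoters of the set and in 5.92% of all 15409. CATG, a form of its core C(A/T)(A/T)G, was in 8 of 22 (36.4%, against 49.04% of all promoters). TATAAA, the TATA box, was in 3 of 22 (13.6% against 9.61%), those of PLEKHG1, THEMIS and TNFSF9, of which TNFSF9 alone is among the 16. CCAAT was in 8 (36.4% against 36.6%), the E-box CANNTG in 15 (68.2% against 64.4%) and the AP-1 motif TGAGTCA in 1, that of DCLK1 (4.55% against 3.68%). These letters are a description of 300 bases and say nothing of a factor's binding elsewhere.

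**Figure D1:**
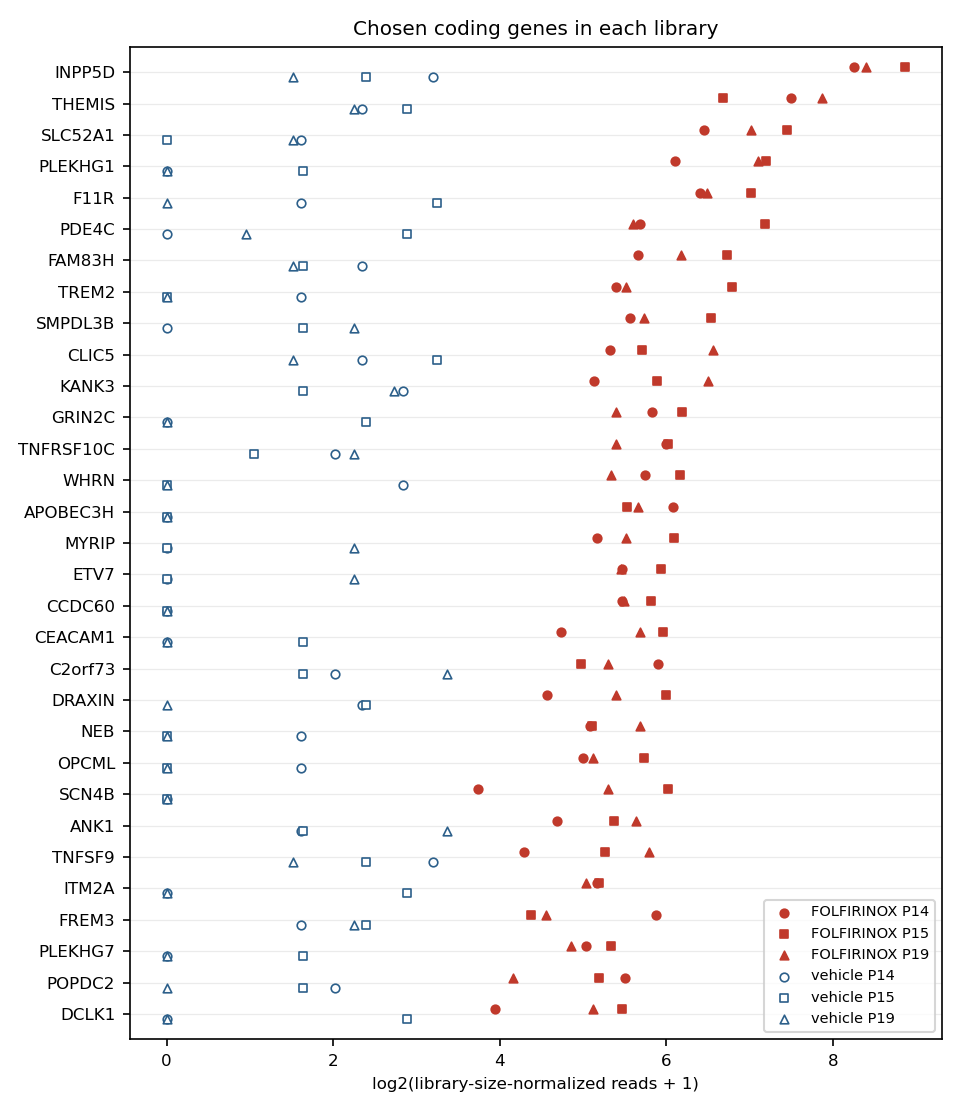
Values of 31 of the 32 genes in each library, as log2 of normalized reads + 1, with filled symbols for FOLFIRINOX and open ones for vehicle; circles are P14, squares P15 and triangles P19. Every FOLFIRINOX value of a gene lies right of its vehicle values, and INPP5D and THEMIS stand highest.

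In FOLFIRINOX the set was read at low but repeated levels. The FOLFIRINOX mean had a median of 51.4 normalized reads and ran from 30.4 to 368, with 5 genes at 100 or more and 16 under 50. No FOLFIRINOX value of any of the 32 genes was 0, and the lowest was 12.3. In vehicle, 41 of the 96 values were 0 and the highest was 9.35. The 2 groups did not overlap for any of the 32 genes, which the selection makes likely, and 19.9% of all tested genes had every FOLFIRINOX value above every vehicle value. All 32 passed the filter on low values, which a FOLFIRINOX mean of 30 nearly fixes. Of the vehicle read counts above 0, 50 of 55 were even, as were 74.0% of the counts under 50 over all genes. The 95% intervals below therefore take 2 reads as 1 observation, and they cover counting error only.

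INPP5D and THEMIS, signalling genes of blood cells, had the highest FOLFIRINOX means of the set. INPP5D encodes SHIP1, the phosphatase that removes the 5-phosphate of PIP3 in blood cells. INPP5D had 303, 465 and 335 normalized reads in FOLFIRINOX P14, P15 and P19, an order kept below, against 8.20, 4.24 and 1.87 in vehicle P14, P15 and P19. That is a ratio of 78.6 (interval 37.9 to 196), with P15 highest in FOLFIRINOX and every vehicle value under 10. THEMIS, a T-cell lineage protein needed for thymocyte selection, came next. Its values were 180.0, 101 and 232 in FOLFIRINOX and 4.10, 6.37 and 3.74 in vehicle. Here P19 was highest and P15 lowest, a 2.29-fold range within FOLFIRINOX, and the ratio was 36.7 (17.6 to 92.2). TREM2, a lipid receptor of macrophages and microglia, had a FOLFIRINOX mean of 65.0 and was clearly highest in P15. TREM2 had 41.1, 109 and 44.8 in FOLFIRINOX, against 2.05, 0 and 0 in vehicle.

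Other genes of immune cells were read at lower levels. APOBEC3H, a cytidine deaminase that restricts retroviruses, had 0 reads in all vehicle libraries. The FOLFIRINOX values of APOBEC3H were 66.9, 45.2 and 49.5, against 0 in each vehicle library. This is at least 17.8-fold higher than a floor of 3 reads per vehicle library. TNFRSF10C is a decoy receptor for TRAIL that lacks a death domain. In FOLFIRINOX, TNFRSF10C had 62.8, 63.9 and 41.1 normalized reads, and in vehicle 3.07, 1.06 and 3.74. The FOLFIRINOX values of P14 and P15 were almost equal and that of P19 lower. ETV7, a repressor of the ETS family, had 43.2, 59.99 and 43.0 in FOLFIRINOX and 0, 0 and 3.74 in vehicle, where 1 library held all 4 reads. CEACAM1, an adhesion molecule of epithelia and leukocytes, had 25.7, 61.0 and 50.4 in FOLFIRINOX, against 0, 2.12 and 0 in vehicle. TNFSF9, the ligand of the costimulatory receptor 4-1BB, had the smallest ratio of the set, 7.95 (3.62 to 20.7). Its values were 18.5, 37.4 and 54.2 in FOLFIRINOX and 8.20, 4.24 and 1.87 in vehicle. Its P14 values were the lowest of FOLFIRINOX and the highest of vehicle.

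Blood markers were low throughout. The 7 of them summed to 24.7 to 67.2 in FOLFIRINOX and 0 to 11.2 in vehicle. PTPRC, the pan-leukocyte CD45 gene, had 4.11, 3.93 and 35.5 in FOLFIRINOX and 0 in every vehicle library, and the monocyte marker CD14 18.5, 21.6 and 29.9 in FOLFIRINOX against 9.22, 0 and 9.35 in vehicle. The haemoglobin gene HBB was 0 in all libraries, and CD3E, MS4A1 and ITGAM stayed at 3.93 or less. THEMIS and PTPRC were both highest in FOLFIRINOX P19, whereas INPP5D and TREM2 were highest in P15. The part of any blood cell RNA in these values was not tested.

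Genes of the membrane and of epithelia formed a second group. SLC52A1, a riboflavin transporter, had 398 reads in FOLFIRINOX against 4 in vehicle. SLC52A1 had 86.4, 174 and 128 in FOLFIRINOX, against 2.05, 0 and 1.87 in vehicle. The ratio was 97.2 (26.6 to 808). F11R encodes junctional adhesion molecule A, a component of tight junctions. In FOLFIRINOX, F11R had 83.3, 129 and 88.7 normalized reads, and in vehicle 2.05, 8.49 and 0. Vehicle P15 alone held 8 of its 10 vehicle reads. FAM83H is a scaffold protein needed for tooth enamel. Its values were 49.4, 105 and 71.0 in FOLFIRINOX and 4.10, 2.12 and 1.87 in vehicle. SMPDL3B, a membrane-anchored phosphodiesterase related to sphingomyelinase, had 46.3, 91.5 and 52.3 in FOLFIRINOX and 0, 2.12 and 3.74 in vehicle. In both FAM83H and SMPDL3B the P15 value was highest and the P14 value lowest within FOLFIRINOX.

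CLIC5, a chloride intracellular channel family protein of the cell cortex, had 39.1, 51.1 and 93.4 in FOLFIRINOX and 4.10, 8.49 and 1.87 in vehicle. WHRN encodes whirlin, a scaffold of the stereocilia of hair cells. In FOLFIRINOX, WHRN had 52.5, 70.8 and 39.2 normalized reads, and in vehicle 6.15, 0 and 0. All 6 of its vehicle reads were in P14.

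Among signalling and cytoskeletal genes, PLEKHG1 had the largest ratio of the genes with a vehicle read. It belongs to a family of guanine nucleotide exchange factors. Its values were 67.9, 146 and 136 in FOLFIRINOX and 0, 2.12 and 0 in vehicle. With 2 vehicle reads in all, its ratio of 176 had an interval of 31.2 to 6983. PLEKHG7 of the same family had 31.9, 39.3 and 28.0 in FOLFIRINOX and 0, 2.12 and 0 in vehicle. PDE4C degrades cyclic AMP. PDE4C had 50.4, 145 and 47.6 in FOLFIRINOX, against 0, 6.37 and 0.935 in vehicle. Its P15 value was 3.04 times that of P19, one of the widest ranges. KANK3, an ankyrin-repeat protein of a family that links adhesions to the cytoskeleton, had 33.9, 58.0 and 89.7 in FOLFIRINOX and 6.15, 2.12 and 5.61 in vehicle. MYRIP, which joins Rab27 on vesicles to myosin VIIa, had 35.0, 66.9 and 44.8 in FOLFIRINOX and 0, 0 and 3.74 in vehicle. DCLK1, a microtubule-binding kinase, lay just inside the threshold with 14.4, 43.3 and 33.6 in FOLFIRINOX and 0, 6.37 and 0 in vehicle.

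Genes of nerve cells and ion channels were read as well. GRIN2C encodes a GluN2 subunit of the NMDA receptor. In FOLFIRINOX, GRIN2C had 55.6, 71.8 and 41.1 normalized reads, and in vehicle 0, 4.24 and 0. SCN4B, an auxiliary subunit of voltage-gated sodium channels, had 0 reads in vehicle and the widest spread in FOLFIRINOX. The FOLFIRINOX values of SCN4B were 12.3, 63.9 and 38.3, against 0 in each vehicle library. That is a 5.18-fold range between P15 and P14, and at least 12.6-fold above the vehicle floor on average. OPCML, an adhesion molecule of the IgLON family, had 30.9, 52.1 and 33.6 in FOLFIRINOX and 2.05, 0 and 0 in vehicle. DRAXIN, a secreted axon guidance protein, had 22.6, 62.9 and 41.1 in FOLFIRINOX and 4.10, 4.24 and 0 in vehicle. For both, P15 was the highest and P14 the lowest library within FOLFIRINOX.

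Muscle and membrane-skeleton genes were at the low end. NEB encodes nebulin, the giant protein of the thin filament. Its values were 32.9, 33.4 and 50.4 in FOLFIRINOX and 2.05, 0 and 0 in vehicle. Per kb of exon it was the lowest of the set, at 1.27 normalized reads. POPDC2, a cyclic-AMP-binding protein of heart and skeletal muscle, had 44.2, 35.4 and 16.8 in FOLFIRINOX and 3.07, 2.12 and 0 in vehicle. ANK1, the ankyrin of the red-cell membrane, had 24.7, 40.3 and 48.6 in FOLFIRINOX and 2.05, 2.12 and 9.35 in vehicle, with 10 of its 14 vehicle reads in P19.

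The remaining genes have no shared role. CCDC60, a coiled-coil protein, was the third gene with 0 vehicle reads. The FOLFIRINOX values of CCDC60 were 43.2, 55.1 and 43.9, against 0 in each vehicle library. This was among the narrowest spreads, at least 15.7-fold above the floor. ITM2A, an integral membrane protein, had the narrowest: 35.0, 35.4 and 31.8 in FOLFIRINOX, against 0, 6.37 and 0 in vehicle. FREM3, an extracellular matrix protein related to FRAS1, had 57.6, 19.7 and 22.4 in FOLFIRINOX and 2.05, 4.24 and 3.74 in vehicle. C2orf73 had 58.6, 30.5 and 38.3 in FOLFIRINOX and 3.07, 2.12 and 9.35 in vehicle. In FREM3 and C2orf73 the order of the FOLFIRINOX libraries was the reverse of the common one, with P14 highest and P15 lowest.

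Over the set, 3 genes had no vehicle read, 6 had 1 to 3, and 23 had more, up to 15. The ratio of FOLFIRINOX over vehicle ran from 7.95 to 176 among the genes with a vehicle read, and 28 of the 32 had a ratio of 10 or more or no vehicle read. All 3 FOLFIRINOX values were 30 or more for 23 genes, and all 3 vehicle values were under 5 for 20. The genes nearest the vehicle threshold inside were C2orf73, CLIC5 and INPP5D at means of 4.85, 4.82 and 4.77, and those just outside TFEC, PDE6G and CCDC178 at 5.22, 5.54 and 5.65. At the FOLFIRINOX threshold, DCLK1, POPDC2 and PLEKHG7 lay inside at 30.4, 32.2 and 33.1, and MAGEB6, PADI3 and SLC2A2 outside at 29.9, 28.6 and 28.5. No gap separates the set from its neighbours on either scale.

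**Figure D2:**
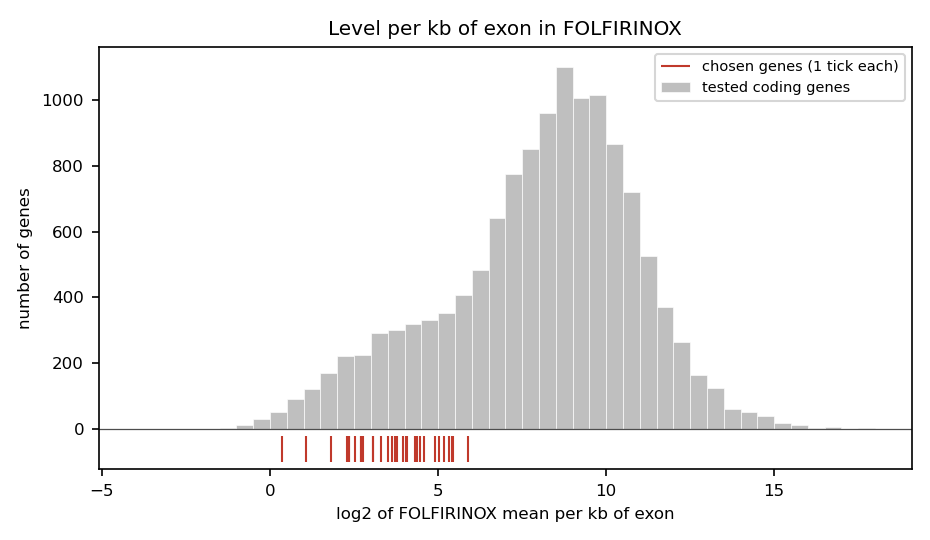
Number of tested coding genes (grey bars) by log2 of the FOLFIRINOX mean per kb of exon, with 1 red tick below the axis for each of the 32 genes. All ticks lie left of the main peak of the bars.

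After FOLFIRINOX the genes remained among the least abundant RNAs per length. The FOLFIRINOX mean per kb of exon had a median of 13.2 normalized reads over the 32 genes, against 344 over 13013 tested coding genes, and 0 of the 32 lay above that second median. TREM2 was highest at 59.4 per kb, and 78.2% of the tested coding genes lay above it. APOBEC3H and INPP5D followed at 43.1 and 42.4 per kb. As a share of the library, the FOLFIRINOX level of the set ran from 0.359 to 4.32 CPM, with a median of 0.600. INPP5D and THEMIS together held 24.5% of the summed value of the set.

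**Figure D3:**
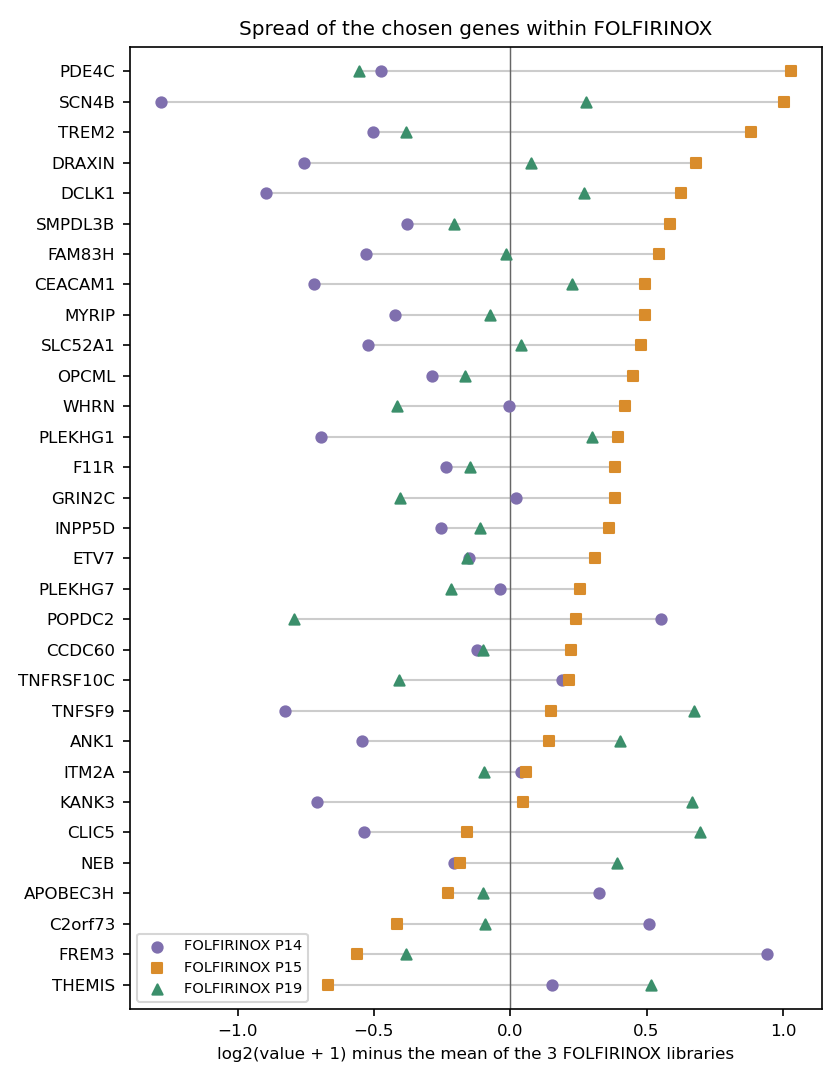
Values of 31 of the 32 genes within FOLFIRINOX, as log2(value + 1) minus the mean of the 3 FOLFIRINOX libraries; circles are P14, squares P15 and triangles P19. P15 is the rightmost symbol for 21 genes and P14 the leftmost for 19.

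The FOLFIRINOX libraries were not equal for the set. FOLFIRINOX P15 was highest for 21 of the 32 genes (65.6%), FOLFIRINOX P19 for 7 and FOLFIRINOX P14 for 4. Among 2283 other tested coding genes in the same range of means, P15 was highest for 46.6%, and among all other tested genes for 36.7%. P14 was lowest for 19 genes (59.4%), against 40.5% and 41.3% in those 2 sets. The summed value was 1814, 2610 and 2182 in FOLFIRINOX P14, P15 and P19, and 72.7, 83.8 and 57.0 in vehicle P14, P15 and P19. The median SD of log2(value + 1) within FOLFIRINOX was 0.50 for the set, 0.30 for the 2283 genes in the same range of means and 0.25 for the other tested genes. Levels within that range were not matched to those of the set, and the part of level in the spread was not tested. SCN4B, PDE4C and FREM3 had the largest SD, at 1.17, 0.89 and 0.82, and ITM2A, CCDC60 and PLEKHG7 the smallest, at 0.08, 0.19 and 0.24. Mitochondrial ribosomal RNA made up 2.74%, 1.18% and 1.23% of the reads in FOLFIRINOX P14, P15 and P19 and 0.864%, 0.563% and 0.552% in vehicle, and its part in the low P14 values was not tested.

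The rule was also applied without each P number, and the genes it then chose were looked up in the pair it had not used. Without both P14 libraries it chose 40 genes, 26 of them in the set, of which 39 were higher in FOLFIRINOX P14 than in vehicle P14 and 18 passed both thresholds in that pair. Without both P15 libraries it chose 30, 24 of them in the set, of which 30 were higher in FOLFIRINOX P15 and 18 passed both. Without both P19 libraries it chose 34, 26 of them in the set, of which 34 were higher in FOLFIRINOX P19 and 20 passed both. The median of the chosen genes in the unused pair was 35.0, 60.5 and 43.4 in FOLFIRINOX P14, P15 and P19, and 2.05, 2.12 and 0 in vehicle P14, P15 and P19. Over all tested genes, FOLFIRINOX was above vehicle for 52.0% in the P14 pair, 51.1% in the P15 pair and 50.5% in the P19 pair. These counts describe the rule and are no test. Most genes chosen each time were in the set, which the values of the unused pair had helped to choose, and the others are not in the set. The shares over all tested genes are not limited to genes near 0 in vehicle.

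Relatives from the same gene families were listed for 28 of the 32 genes once the names of the set were known, 116 genes in all, of which 49 had a vehicle mean under 5. Of the 49, 46 stayed under 5 in FOLFIRINOX (93.9%) and 0 reached 30, a share near the 91.9% over all coding genes silent in vehicle, of which 0.650% reached 30. Among the 64 relatives tested with limma, 9 were higher and 14 lower in FOLFIRINOX (14.1% and 21.9%, beside 11.4% and 12.2% over all tested genes), with a median log2 difference of −0.20, against 0.02 over all tested genes. With the replicate block on P number, 15 were higher and 25 lower, where 22.3% and 21.8% of all tested genes were called, and 17 of the 41 relatives with no call gained one. Without the filter on low values 14 were higher.

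The TRAIL receptors were the family in which limma called every relative higher. With the replicate block, both relatives of ITM2A were called higher as well. These were ITM2B and ITM2C, with log2 differences of 0.77 and 0.39 (limma adjusted p = 2.8e-07 and 0.00811 with the block). TNFRSF10A, a death receptor, had 1739, 1828 and 1953 in FOLFIRINOX and 264, 292 and 302 in vehicle (log2 difference 2.68 ± 0.17 SE, limma adjusted p = 1.1e-06). TNFRSF10B, the other death receptor, and the decoy TNFRSF10D rose by 1.83 and 2.08 (adjusted p = 1.1e-05 and 2.4e-06). TNFRSF10C is similar in sequence to its relatives, as are CEACAM1, APOBEC3H and SLC52A1 to theirs. The sources used here do not give how reads that fit several genes were counted, and their values are uncertain to that extent.

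Among the APOBEC3 deaminases the genes moved in different directions. APOBEC3B had 11.3, 13.8 and 39.2 in FOLFIRINOX and 879, 994 and 1208 in vehicle, a fall of 5.71 on the log2 scale (SE 0.39, limma adjusted p = 2.4e-06), while APOBEC3C rose by 1.65 ± 0.16 SE (adjusted p = 3.6e-05). APOBEC3F and APOBEC3G differed by −0.07 and 0.05 and were not called. APOBEC3D averaged 12.2 in FOLFIRINOX and 29.1 in vehicle, a log2 difference of −1.18 with an adjusted p of 0.0742, and of 0.0463 with the replicate block in limma, and APOBEC3A stayed under 5 in both groups. APOBEC3H, off in vehicle, was thus read in FOLFIRINOX beside 1 relative that fell, 1 that rose and 3 with no call.

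In the other families more relatives were called lower than higher. THEMIS2 had 257, 256 and 251 in FOLFIRINOX and 454, 481 and 541 in vehicle (−0.94 ± 0.18 SE, limma adjusted p = 0.00390). Of 10 relatives of INPP5D, all tested, SYNJ2 was lower (−1.11 ± 0.16 SE, adjusted p = 7.3e-04) and the others, INPPL1 (SHIP2) among them at 0.11, were not called. With the replicate block, INPP5A, INPP5B and INPP5J were called lower as well (limma adjusted p = 0.0497, 0.00392 and 0.0313) and OCRL and SYNJ1 higher (0.0171 and 0.00628). JAM3, a relative of F11R, and CLIC1, of the CLIC5 family, were lower (log2 differences −0.74 and −0.84). FAM83D, a mitotic spindle protein in the FAM83H family, fell to 107, 90.5 and 72.8 in FOLFIRINOX, against 2364, 2694 and 2607 in vehicle (−4.83 ± 0.20 SE). The 3 other cyclic AMP phosphodiesterases of the PDE4C family, PDE4A, PDE4B and PDE4D, differed by 0.09, −0.36 and −0.49 and were not called, though PDE4D was with the replicate block (adjusted p = 0.00482, limma). NTM and NEGR1, IgLON relatives of OPCML, were lower (−1.01 and −1.02), as were ANK2 (−1.43) and the MYRIP relative MLPH (−1.15). The call of NEGR1 ended without both P14 libraries (adjusted p = 0.0522).

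A few relatives rose. SCN3B, an auxiliary sodium channel subunit like SCN4B, had 113, 189.8 and 129 in FOLFIRINOX and 16.4, 31.8 and 16.8 in vehicle (2.71 ± 0.36 SE, limma adjusted p = 3.3e-04). GRIN3B, an NMDA receptor subunit, had 43.2, 80.6 and 70.0 in FOLFIRINOX and 22.5, 12.7 and 9.35 in vehicle (2.09 ± 0.43 SE, adjusted p = 0.00536), while GRIN1, the subunit every NMDA receptor needs, had 6.17, 4.92 and 8.40 in FOLFIRINOX and 8.20, 6.37 and 20.6 in vehicle and was not tested. BVES of the POPDC2 family rose by 1.504, TNFSF4 of the TNFSF9 family by 1.24 and ITM2B of the ITM2A family by 0.77. CLIC2 of the CLIC5 family, FRAS1 of the FREM3 family and CEACAM19 had log2 differences of 1.44, 1.19 and 0.88 and no call, and were called higher with the replicate block (limma adjusted p = 0.0245, 0.00625 and 0.0152). Over all families the block added 6 higher and 11 lower calls. Among the added lower ones were GRIN2D, DCLK2, KANK1 and KANK2 (log2 differences −0.56, −0.58, −0.44 and −0.32). All 9 rises called without the block were called in each fit without 1 library, as were 10 of the 14 falls. The call of SLC52A2, of the SLC52A1 family, ended without any of FOLFIRINOX P14 and P19 and vehicle P14 and P15 (adjusted p 0.0812 to 0.107). LASP1 lost its call without any of FOLFIRINOX P14, P15 and P19 and vehicle P14 and P15 (0.0664 to 0.140), and TNFSF18 lost its call without vehicle P14 (0.0607). SLC52A2, LASP1 and TNFSF18 were lower in FOLFIRINOX in every one of those fits.

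**Figure D4:**
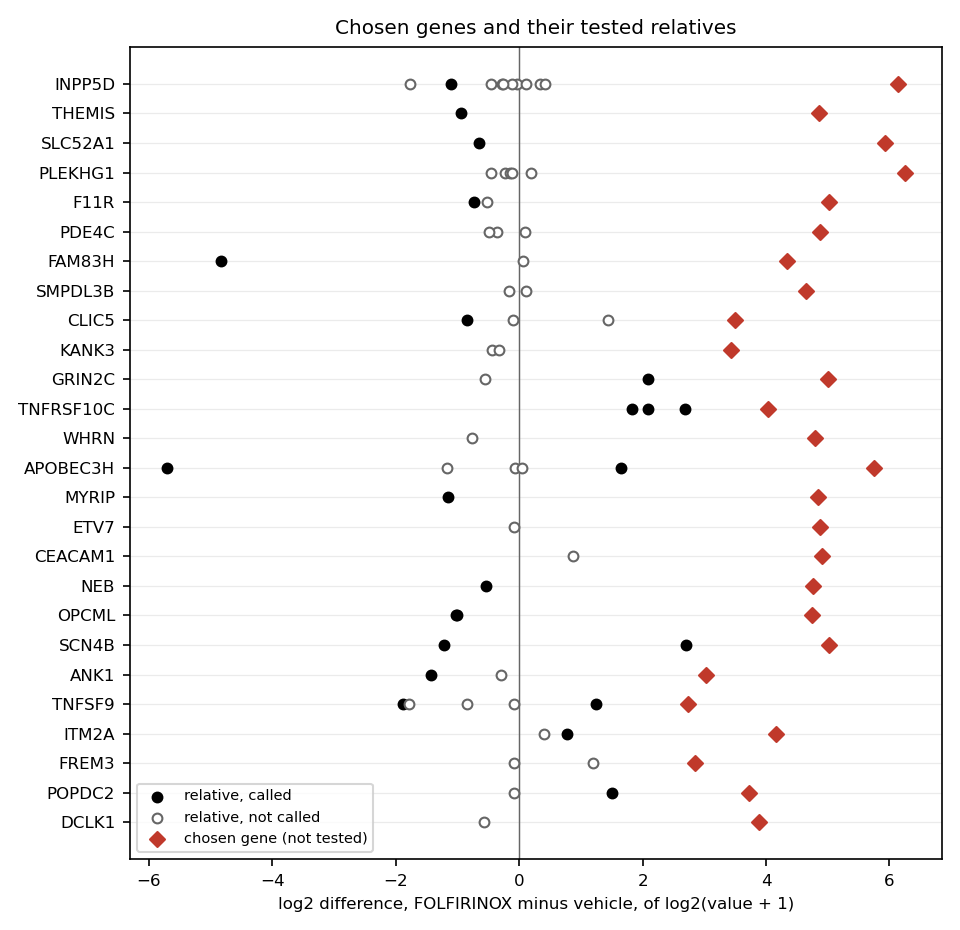
Log2 difference, FOLFIRINOX minus vehicle, on the log2(value + 1) scale for genes of the set (red diamonds, chosen for their difference) and their tested relatives (black when called by limma, open when not), 1 row per family. Relatives lie on both sides of 0, and those of TNFRSF10C all lie between 1.83 and 2.68.

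Neighbours on the chromosome were a further comparison that the selection did not use. No 2 genes of the set lay within 500 kb of each other. Chromosome 6 held 5 of them and chromosome 19 held 4. Of the 64 nearest coding genes on either side, 37 were tested, and limma called 9 higher (24.3%) and 6 lower (16.2%), beside 11.4% and 12.2% over all genes. With the replicate block the counts were 10 and 7 of the 37, where 22.3% and 21.8% of all tested genes were called. All tested genes include noncoding ones, and no share over coding genes alone was computed. TNFRSF10B and TNFRSF10D, among the 9 higher, and NTM, among the 6 lower, were also counted as relatives. Within 100 kb of the 32 genes, 86 coding genes were tested, 20 higher (23.3%) and 13 lower (15.1%). Of the 64 neighbours 27 (42.2%) had a vehicle mean under 5, against 33.7% of coding genes. Of the 27, 25 stayed under 5 in FOLFIRINOX, as did 91.9% of all coding genes silent in vehicle. For 9 genes of the set both neighbours were silent in vehicle.

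The largest rise among neighbours was beside GRIN2C. FDXR, a mitochondrial ferredoxin reductase and known p53 target, ends 993 bases upstream of the start of GRIN2C on the same strand (GRIN2C spans chr17:74842023-74861504, minus strand, GRCh38). FDXR had 3188, 4868 and 3710.3 in FOLFIRINOX, against 611, 531 and 493 in vehicle. Its log2 difference was 2.83 ± 0.19 SE (adjusted p = 2.3e-06, limma). FDXR and GRIN2C were both highest in FOLFIRINOX P15, as were 65.6% of the set and 36.7% of the other tested genes. The lowest FOLFIRINOX library was P14 for FDXR and P19 for GRIN2C. On the other side of GRIN2C, TMEM104 was lower (log2 difference −0.78), a call that ended without both P14 libraries (adjusted p = 0.0969). TNFRSF10D and TNFRSF10B flank TNFRSF10C at 18151 and 33411 bases. KIF1C, a kinesin motor gene 4199 bases from SLC52A1, rose by 0.77. Of the 9 higher neighbours, 4 were on the list of known p53 targets.

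Other neighbours were lower or unread. MAD2L2, a DNA repair and checkpoint gene that starts 79 bases from DRAXIN on the opposite strand, was lower (log2 difference −0.94). In FOLFIRINOX, MAD2L2 had 905, 944 and 835 normalized reads, and in vehicle 2117, 1536 and 1537. RPA2, a single-strand DNA binding protein 20247 bases from SMPDL3B, was lower (−0.88), as was NTM next to OPCML (−1.01). IQANK1, 339 bases from FAM83H on the opposite strand, had a mean of 9.04 in FOLFIRINOX and 0 in vehicle and was not tested. Of the 15 neighbour calls, 8 held in each fit without 1 library, and 5 of the 9 rises and 2 of the 6 falls ended in at least 1 of them. CBX7, beside APOBEC3H, lost its call without FOLFIRINOX P15 or vehicle P14 (adjusted p 0.0612 and 0.0530), BTG1 without FOLFIRINOX P15 or P19 (0.0584 and 0.0501), and ACYP2 and ATP6V1G1 without FOLFIRINOX P14 or vehicle P15 (0.0683 to 0.0934). ZFP3 lost it in 4 such fits, TNFAIP6 in 5 and AKNA in all 6, with adjusted p up to 0.178. Without both P14 libraries 5 neighbours were higher.

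**Figure D5:**
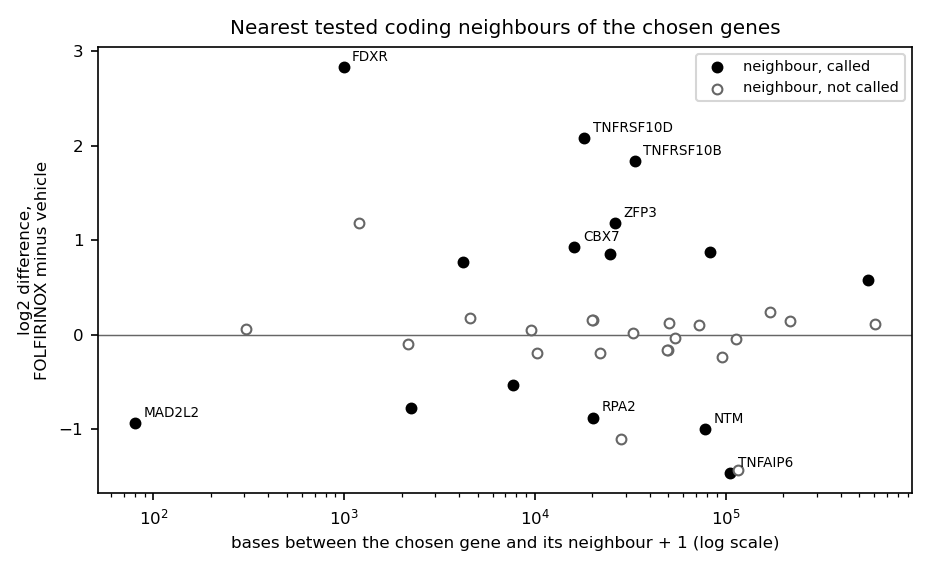
Log2 difference, FOLFIRINOX minus vehicle, on the log2(value + 1) scale for the 37 tested nearest coding neighbours, against their distance in bases from the gene of the set on a log scale. Called neighbours (black) lie on both sides of 0, with FDXR highest at 2.83.

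Reads of overlapping genes may have entered some of the values. Of the 32 genes, 22 overlapped another annotated gene and 10 a tested one, and the strand setting of the counting is not given in the sources used here. MYRIP lies across from EIF1B-AS1, which had 475, 335 and 376 in FOLFIRINOX and 129, 121 and 132 in vehicle. The log2 difference of EIF1B-AS1 was 1.61 ± 0.21 SE (limma adjusted p = 3.3e-04). Overlap was counted over whole gene spans, introns included, and whether reads of EIF1B-AS1 entered the MYRIP values was not tested. The other 9 overlapping tested genes were not called. Among them, KANK3 lies opposite RPS28, NEB opposite RIF1, CEACAM1 opposite LIPE-AS1, FREM3 opposite GUSBP5 and PLEKHG7 opposite EEA1, POPDC2 on the same strand as COX17, and PDE4C and TNFRSF10C beside unnamed transcripts. With the replicate block EEA1 was called higher (log2 difference 0.54, limma adjusted p = 3.2e-04). RPS28, opposite KANK3, had 9492, 6966 and 5667 in FOLFIRINOX and 13439, 7128 and 6375 in vehicle.

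Lists of genes from other tissues and of p53 targets, without the genes of the set, show how far such genes moved in general. Over all tested genes, limma called 11.4% higher and 12.2% lower, or 22.3% and 21.8% with the replicate block. Of all coding genes silent in vehicle, 0.650% reached 30 in FOLFIRINOX. Of 117 tested known p53 targets, 92 were higher and 4 lower (median log2 difference 1.498), and the lower ones numbered 2 without vehicle P14. PLEKHG1 and TNFRSF10C of the set are on this list. Of its 12 other genes with a vehicle mean under 5, 2 reached 30 in FOLFIRINOX, ABCA12 and SULF2, which the selection left out by name. Among 14 tested genes of cornified and stratified epithelium 6 were higher and 1 lower, with the 1 lost without vehicle P14. Of the 36 genes on that list silent in vehicle, 3 reached 30, and the selection left these out by name. DSG3, a desmosomal cadherin, was 1 of the 3, with 73.0, 109 and 181 in FOLFIRINOX and 0 in every vehicle library. KRT17 had 204, 324 and 288 in FOLFIRINOX and 16.4, 0 and 13.1 in vehicle. Its vehicle mean was above 5, so it was not 1 of the 3.

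Neuronal, channel, muscle, blood, liver and germline lists were mixed or mostly silent. Of 21 tested neuronal and synaptic genes 3 were higher and 5 lower, among them NEFL, a neurofilament gene, with 497, 665 and 448 in FOLFIRINOX and 28.7, 31.8 and 18.7 in vehicle, and MAP2, which was lower (log2 difference −1.56). With the replicate block 8 were lower. Of 27 ion channel genes 5 were higher and 4 lower. Those counts were 3 and 2 without FOLFIRINOX P15, and 2 were lower without vehicle P15 and 9 with the block. SCN2A, a sodium channel pore subunit, rose by 1.95 and KCNMA1, a calcium-activated potassium channel, was lower (log2 difference −1.39). Of 9 tested blood cell genes 1 was higher, GATA3 (1.62), and 1 lower, CORO1A (−1.53), whose call ended without both P14 libraries. Of the same list 2 were higher without vehicle P14 or without vehicle P19, and 3 with the block. Of the 58 blood cell genes listed, 49 were silent in vehicle and 43 stayed under 5 in FOLFIRINOX too. Over all coding genes silent in vehicle, 91.9% stayed under 5. The blood cell list holds 0 genes of the set. Limma called 0 of 5 muscle genes, where 1 was higher at an unadjusted p under 0.05, edgeR called 0, and DESeq2 called 2 higher. It called 0 of 4 germline genes, with 0 at an unadjusted p under 0.05 and 0 by edgeR and DESeq2, and with the block 1 was lower. Of 7 liver genes 0 were higher (2 at an unadjusted p under 0.05, 0 by edgeR and DESeq2, 2 with the block, and 1 without FOLFIRINOX P14 or vehicle P14) and 1 was lower, CPS1. In the neuronal, channel, muscle, blood, liver and germline lists, 17, 29, 36, 49, 30 and 27 genes outside the set were silent in vehicle. Of these 0 reached 30 beside SCN4B and NEB of the set. The share over all silent coding genes was 0.650%, too small to compare over lists of this size.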

How the data were processed

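Per the labels' protocols, messenger RNA of the cells was enriched (NEB) before KAPA RNA HyperPrep library construction. Reads went through STAR 2.7.11b, featureCounts 2.0.6 and DESeq2, with FastQC 0.12.1 and the build GRCh38, per the submitters' processing notes. Not given in the sources used here are the annotation, the strand setting and the treatment of reads that fit several genes. The authors' deposited table holds a library-size-normalized signal for 62754 genes, with symbols for 42523, and their log2 fold changes, a test score and p-values, which were not used. Dividing each value by that of 1 read gave whole numbers within 0.001 for 100% of values, so reads were recovered and used for edgeR 4.0.16 and DESeq2 1.42.0 as alternatives.

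The main test was limma 3.58.1 (R 4.3.3) on log2(value + 1) with its trend option. It took the 17951 genes that reached 10 in 3 or more libraries, and p-values were adjusted over all of them (Benjamini-Hochberg, 0.05). Folds on that scale understate the change of low genes. Columns carry a P number that is in no label, so they were assigned to groups. Deviations from group means correlated at 0.257, 0.282 and 0.288 between libraries of the same P number, and at −0.26 to −0.03 otherwise, so the numbers were taken as pairs and a replicate block on P number was an alternative. Others were TMM and common-total scaling, no trend, a filter at 50 or none, pseudocounts of 0.5 and 8, leaving out each library, and leaving out both P14 libraries.

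The genes of the set, the lists, the relatives and the tests were chosen with earlier results of these data known. Lists and roles come from general knowledge. Genes named were the 24 with the highest FOLFIRINOX mean, those with 0 vehicle reads, those nearest each threshold, those of largest and smallest spread, those on the p53 list, those overlapping other genes, and called neighbours and list genes by size of difference. A few genes, 1 of them in the set, enter the counts but are not reported here by name. Relatives and the remaining genes of the set were named after their values were seen. GENCODE 29 gave coordinates and exon lengths for 58261 genes. The limma step was checked on simulated data. An exact permutation test of 3 against 3 cannot reach the threshold and was not used.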

Additional observations from a re-analysis of the deposited data

How the results depend on the processing

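The number of genes selected was 31 with TMM scaling and 33 with a common total, and 31 to 38 without 1 library. It was 16 and 56 with the vehicle threshold at 2 and 10, 101 and 12 with the FOLFIRINOX threshold at 15 and 60, and 14 when every library had to pass. No log2 difference of the set changed sign in 517 recomputations, which the selection nearly fixes. Of these, 117 moved by more than the SD within FOLFIRINOX. Genes called higher over all tested genes numbered 1318 to 2218 without 1 library (lower 1544 to 2204), 3995 with the replicate block (lower 3918) and 1162 without both P14 libraries (lower 1368). Neighbours called higher numbered 5 without both P14 libraries and 20 within 100 kb, where 13 were lower. Relatives numbered 14 higher without the filter, and 15 higher and 25 lower with the replicate block. List genes other than those of the set numbered 105 higher and 15 lower, and the lower ones were 26 with the replicate block and 8 when both P14 libraries were left out. Without 1 library, 6 to 9 neighbours were higher and 4 to 5 lower, 9 to 10 relatives higher and 11 to 15 lower, and 98 to 104 list genes higher and 11 to 18 lower. In the 150 bases next to the start, CATG was in 27.3% of the promoters of the set (26.7% of all), TATAAA in 9.09% (6.399%), CCAAT in 27.3% (26.9%), the E-box in 59.1% (39.3%) and the p53 half-site in 0 (2.82%). Over the 16 starts near an annotated 5′ end, a choice made after seeing the data, the 300-base shares were 37.5%, 6.25%, 43.8%, 62.5% and 0. The vehicle values of the 32 genes rest on 0 to 15 reads per gene, so counting error limits their ratios. The causes of these shifts were not tested.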
